A study of Mus musculus with 6 samples.

Results

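Interferon-induced GTPases are large nucleotide-binding proteins of cell-autonomous defense, and 10 of their genes were followed here: Mx1 and Mx2, the guanylate-binding protein genes Gbp2, Gbp3, Gbp5 and Gbp7, and the immunity-related GTPase genes Igtp, Irgm1, Irgm2 and Iigp1. They were listed by gene family and name, with earlier results of these data known, and are 10 of the 53618 named rows of the gene table. Other Gbp genes, nearly without reads here, are not among the 10 and are described with the further GTPase genes. All 10 were among the 12298 genes tested, which needed 10 normalized counts in 3 libraries. Mx1 and Mx2 lay under 10 in every library labelled oil and so entered the test only through the libraries labelled tamoxifen. The measurements are bulk RNA-seq of leukemia cells sorted from mouse spleen as GFP+, lineage-negative and c-Kit+. The cells were fetal liver cells carrying Usp18+/f and a tamoxifen-activated Cre, made leukemic with a retrovirus for AE9a (a truncated AML1-ETO fusion) and GFP, and grown in transplanted mice. The group labelled oil (genotype Usp18+/f) received the corn oil vehicle and the group labelled tamoxifen received tamoxifen, which is meant to delete the floxed allele and leave Usp18+/Δ cells. Each group held 3 mice with 1 library each. The labels give sorting 3 days after the first injection, and the methods give 3 injections of oil or tamoxifen before sorting. All 6 libraries carry the retrovirus, the floxed allele and the Cre, which is not restricted to leukemia cells by its promoter. Since only 1 group received tamoxifen, the drug and the deletion cannot be told apart in this design. The methods give lethal irradiation for primary and sub-lethal irradiation for secondary recipients and do not say which were used here. Blood cells of the recipient carry no GFP, so the gate is meant to remove them.

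Interferon binding to its receptors activates STAT transcription factors. Type I interferon acts mainly through a complex of STAT proteins with IRF9 that binds the interferon-stimulated response element (ISRE), and interferon-gamma acts mainly through STAT dimers that bind the gamma-activated sequence (GAS). Mx genes are classical targets of type I and III interferon, whereas Gbp and Irg genes respond to interferon-gamma and in many cells also to type I interferon. Mx proteins block viruses in the nucleus or cytoplasm. Gbp proteins coat and break open the vacuoles or membranes of bacteria and parasites, and effector Irg proteins such as Iigp1 act on the same vacuoles. The regulator proteins Irgm1, Irgm2 and Igtp (also called Irgm3) sit on the cell's own membranes and hold the effector Irg proteins back there. USP18 removes ISG15 from proteins, blocks signaling at the type I interferon receptor, and is itself interferon-induced.

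The promoters are shown first, because the choice by family and name used no promoter sequence. The families were still chosen as interferon-induced, and the ISRE is an element of that response. The share of these genes with an ISRE-like match is therefore a description and not independent of the choice. Promoter sequence (250 bases before to 50 bases after the annotated start, RefSeq, GRCm38.p6) was given for 7 of the 10 genes, namely the 4 Gbp genes, Irgm1, Igtp and Irgm2, and it was searched for 2 motifs on both strands. The ISRE-like motif GAAANNGAAA stood in the promoter of 7 of these 7 genes, against 3.99% of the 27025 gene symbols in the same RefSeq set. The GAS-like motif TTCNNNGAA, which reads the same on both strands, stood in 4 of the 7 (Gbp5, Gbp7, Igtp and Irgm2), against 9.55% of symbols. No GAS-like match overlapped an ISRE-like match. A match describes the letters and does not show that a factor binds there. The 60 bases around each ISRE-like match are printed 5′ to 3′ on the strand of the gene, with the match in capitals:

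Gbp5 chr3:142496744-142496803 (+): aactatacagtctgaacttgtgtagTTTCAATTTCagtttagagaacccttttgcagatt

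Gbp7 chr3:142530258-142530317 (+): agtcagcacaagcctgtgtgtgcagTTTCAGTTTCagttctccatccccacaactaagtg

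Gbp3 chr3:142559977-142560036 (+): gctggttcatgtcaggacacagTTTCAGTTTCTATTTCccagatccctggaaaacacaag

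Gbp2 chr3:142620579-142620638 (+): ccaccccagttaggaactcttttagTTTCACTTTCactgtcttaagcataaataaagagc

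Irgm1 chr11:48871413-48871472 (-): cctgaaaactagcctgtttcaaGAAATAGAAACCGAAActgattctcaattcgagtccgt

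Igtp chr11:58199497-58199556 (+): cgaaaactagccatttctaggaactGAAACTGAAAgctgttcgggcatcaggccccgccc

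Irgm2 chr11:58214888-58214947 (+): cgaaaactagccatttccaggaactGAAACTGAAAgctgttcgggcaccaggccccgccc

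In the 4 Gbp promoters the motif lay on the strand opposite to the gene, and in the 3 Irg promoters it lay on the gene's own strand. In Gbp3 and in Irgm1 the capitals hold 2 matches that overlap each other. The first base of the match lay 59 bases before the start in Gbp2, 53 in Gbp7, 64 in Irgm2, 34 in Igtp, and 45 and 39 in Gbp3. In Irgm1 it lay 30 and 24 bases before the start, and in Gbp5 it was farthest out at 165. Gbp3 had a second annotated promoter, and that window held no match. The Igtp and Irgm2 promoters resembled each other: 244 of 265 aligned bases were identical (92.1%), with a longest identical run of 61 bases. In other lists of the interferon system, the ISRE-like motif stood in 9 of 15 type I interferon genes with a promoter sequence. The motif also stood in 5 of 9 further genes of interferon-induced GTPase families and 1 of 8 interferon-gamma biased genes. It stood in 0 of 10 housekeeping dynamin family genes, whose proteins are related to Mx.

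**Figure D1:**
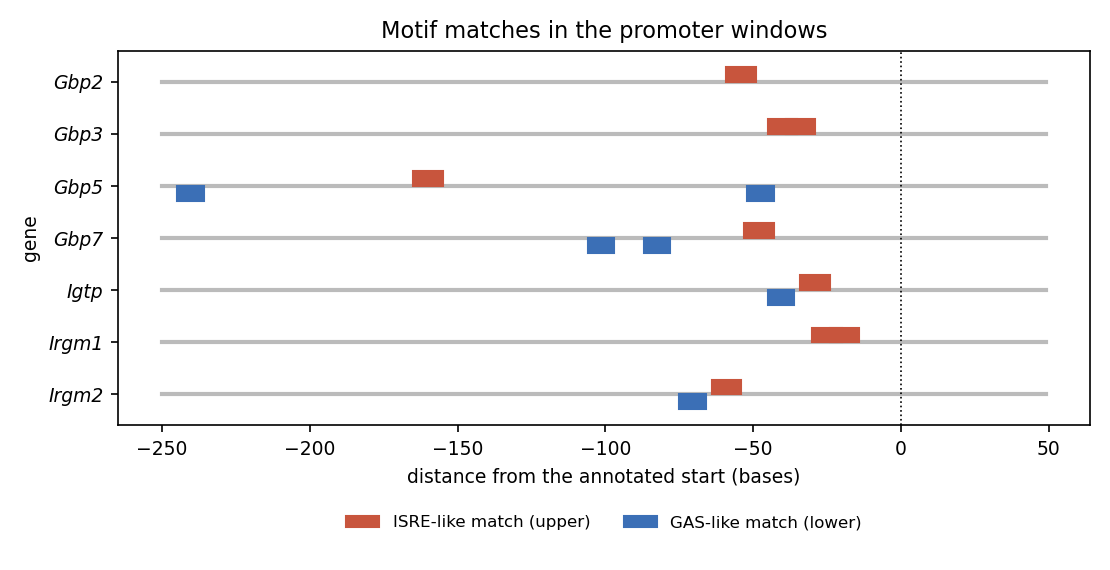
Positions of ISRE-like matches (red, above the line) and GAS-like matches (blue, below the line) in the promoter windows of 7 genes, with the distance from the annotated start in bases on the horizontal axis. Each window holds at least 1 ISRE-like match, and 6 of the 7 genes have it within 64 bases of the start.

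The recovered reads numbered 19172471 to 23785143 per library, so that 1 read was worth 0.898 to 1.28 normalized counts, the unit of all levels below. Usp18, the targeted gene, had higher values in the libraries labelled tamoxifen. Its level was 217 (oil 1), 214 (oil 2) and 176 (oil 3) in the oil-labelled libraries, against 477, 329 and 284 in tamoxifen 1, 2 and 3 (log2 fold change 0.81, SE 0.25, adjusted p = 0.666, limma). Reads over the whole gene do not separate the deleted from the intact allele, so this is no check of the deletion, and every direction below is between libraries so labelled. The library labelled tamoxifen 1 stood apart from the others: its median correlation with them was 0.913 (0.981 to 0.990 for the others), mitochondrial genes took 0.00923% of its reads (1.01% to 1.56%), and its values leaned toward GC-rich genes (Spearman's rho 0.69 between deviation and GC content across genes). For genes with 39% to 52% GC, the range of the 10 genes studied, its median deviation was -0.36 on the log2 scale. Main results are therefore given with and without it.

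All 10 genes had a higher mean in the libraries labelled tamoxifen, and in 7 of them every tamoxifen-labelled library lay above every oil-labelled one: Mx1, Mx2, Gbp2, Gbp3, Gbp7, Igtp and Irgm2. Among all genes tested, 7.86% were higher in this way. The ratio of group means was 8.09 for Mx1 and 8.06 for Mx2, and it lay between 1.30 (Gbp7) and 2.67 (Gbp3) for the other 5 of these genes. For Gbp5, Irgm1 and Iigp1 the groups overlapped. No gene of the table passed an adjusted p of 0.05 in limma (0% of 12298), nor in edgeR's quasi-likelihood test on recovered reads, although 550 and 596 genes had an unadjusted p under 0.05 in these tests. At an unadjusted p under 0.05, limma gave 7 of the 10 genes as higher, against 3.23% of genes tested. In DESeq2 on recovered reads, Mx1, Mx2 and Gbp3 rose (3 of 10, against 0.437% of 15784 genes). The median log2 fold change of the 10 genes was 0.89, and that of all genes tested was -0.017. Since the Mx genes had to differ to be tested, the other 8 are also given alone: 5 were higher without overlap, 5 had an unadjusted p under 0.05 in limma, 1 passed in DESeq2, and their median was 0.80. With 3 libraries against 3, an exact two-sided permutation test cannot give a p below 0.1, so non-overlap is given as a count. In bulk RNA, more cells expressing a gene and more RNA per cell cannot be told apart.

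**Figure D2:**
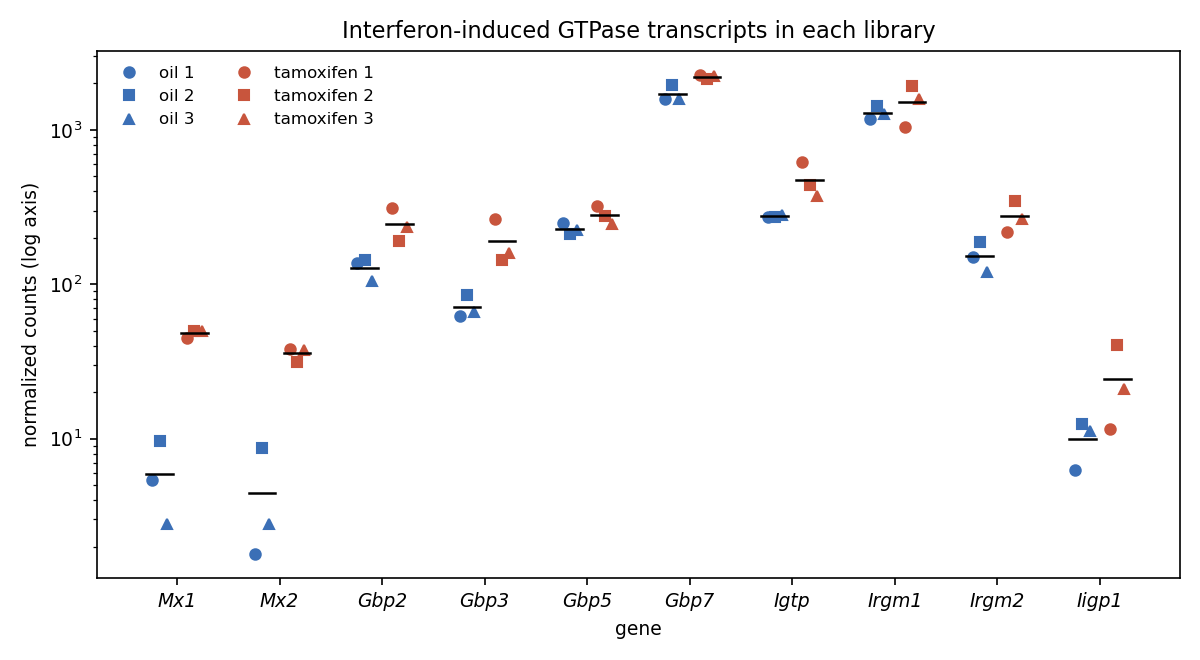
Normalized counts of the 10 genes in each of the 6 libraries, on a log axis, with libraries labelled oil in blue, those labelled tamoxifen in red, and black bars for the group means. The Mx genes are lowest in oil and show the widest gap between groups, and the groups overlap in Gbp5, Irgm1 and Iigp1.

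Without tamoxifen 1, limma called Mx1 alone of the 10 genes as risen (log2 fold change 3.00, adjusted p = 0.0426), a gene tested only because of its tamoxifen-labelled libraries, while 0.309% of the genes tested were called higher. edgeR without that library also called Mx1 alone (3.07, adjusted p = 0.0209, background 0.350%). DESeq2 without it called 6 of the 10 as risen, namely Mx1, Mx2, Gbp3, Igtp, Irgm1 and Irgm2, against 1.28% of 13642 genes. Of the 8 genes other than Mx1 and Mx2, 4 were called. Without tamoxifen 1 the median of the 10 genes was 0.87, against -0.021 for all genes, and that of the 8 without the Mx genes was 0.64.

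The Mx genes showed the widest difference between the groups. Mx1 (ENSMUSG00000000386.15, chromosome 16, 97447035 to 97462907, minus strand, GRCm38), which encodes an antiviral GTPase of the nucleus, had 5.39, 9.65 and 2.79 normalized counts in oil 1, 2 and 3 and 44.7, 49.5 and 50.02 in tamoxifen 1, 2 and 3. The 3 tamoxifen-labelled libraries lay close together and far above the others. These values rest on 6, 10 and 3 reads in oil and on 35, 49 and 55 in tamoxifen, so the counting error of the oil libraries is large. Group means stood at 5.94 ± 3.46 and 48.1 ± 2.92 (SD, n = 3 each), a ratio of 8.09, and the log2 fold change was 2.95 (SE 0.44, 95% interval 1.88 to 4.01, limma). The adjusted p was 0.426 in limma and 3.87e-05 in DESeq2. Every oil value is under the minimum of 10 that the filter asks for, so Mx1 was tested only through the group where it is high. With no filter the adjusted p was 0.476 in limma.

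Mx2 (ENSMUSG00000023341.15, chromosome 16, 97535308 to 97560900, plus strand), its neighbor, encodes the cytoplasmic member of the pair. It had 1.80, 8.68 and 2.79 normalized counts in oil and 38.3, 31.3 and 37.3 in tamoxifen, from 2, 9 and 3 reads and 30, 31 and 41 reads. Again the groups did not overlap, and oil 2 was the highest oil-labelled library for both genes. The means were 4.42 ± 3.72 and 35.7 ± 3.79 (SD, n = 3 each), a ratio of 8.06, with a log2 fold change of 2.96 (SE 0.53, 95% interval 1.70 to 4.22) and an adjusted p of 0.576 in limma and 0.00181 in DESeq2. Mx2, too, passed the filter only through the libraries labelled tamoxifen, and the adjusted p with no filter was 0.541 in limma. Within a library, the log2 ratio of Mx1 to Mx2 averaged 0.44 in oil and 0.43 in tamoxifen, with overlapping groups. GENCODE vM21 types Mx2 as a polymorphic pseudogene, and RefSeq lists both Mx genes as transcribed pseudogenes in the C57BL/6J assembly, so these transcripts say nothing of intact protein. Of their 100-base stretches, 0.929% (Mx1) and 1.13% (Mx2) also occur in the other gene.

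The Gbp genes, which lie in 1 cluster on chromosome 3, had more reads in the oil-labelled libraries than the Mx genes and differed less between the groups. Gbp3 (ENSMUSG00000028268.14, 142560026 to 142573209, plus strand) showed the largest difference of the 4. It had 62.0, 85.9 and 65.9 normalized counts in oil and 266, 144 and 160 in tamoxifen, so tamoxifen 1 was the highest and the groups did not overlap. The means were 71.3 ± 12.8 and 190.1 ± 66.0 (SD, n = 3 each), a ratio of 2.67, with a log2 fold change of 1.36 (SE 0.30, 95% interval 0.64 to 2.09). The adjusted p was 0.666 in limma and 0.0182 in DESeq2, and without tamoxifen 1 the log2 fold change was 1.10 in limma (adjusted p = 0.0813) and 1.11 in DESeq2 (adjusted p = 0.00873).

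Gbp2 (ENSMUSG00000028270.12, 142620602 to 142638008, plus strand), whose protein is recruited to parasite vacuoles, had 136, 143 and 105 normalized counts in oil and 313, 189.9 and 236 in tamoxifen. Every tamoxifen-labelled library was above every oil-labelled one, with tamoxifen 1 again the highest. The log2 fold change was 0.92 (SE 0.26, 95% interval 0.30 to 1.54, adjusted p = 0.666, limma), and it was 0.73 without tamoxifen 1 (adjusted p = 0.181). Gbp7 (ENSMUSG00000040253.15, 142530342 to 142550149, plus strand), the most abundant Gbp transcript, had 1574, 1940 and 1575 normalized counts in oil and 2275, 2128 and 2216 in tamoxifen. The groups were separate but the gap was small, with means of 1696 ± 211 and 2206 ± 74.1 (SD, n = 3 each) and a log2 fold change of 0.39 (SE 0.15, 95% interval 0.033 to 0.74, adjusted p = 0.666, limma). With a correction for GC content the log2 fold change was 0.78, and its 95% interval of -0.040 to 1.60 included 0. Gbp7 overlaps a same-strand gene, Gm43802, over 637 exonic bases, and 10.01% of its 100-base stretches occur in transcripts of other genes, so its count depends on how shared reads were assigned.

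Gbp5 (ENSMUSG00000105504.4, 142493978 to 142522344, plus strand), which promotes inflammasome assembly, had 250.6, 211 and 224 normalized counts in oil and 323, 275 and 245 in tamoxifen. Its groups overlapped, since tamoxifen 3 lay below oil 1. The difference was not beyond the spread of the libraries (log2 fold change 0.29, SE 0.19, 95% interval -0.17 to 0.75, adjusted p = 0.666, limma). Without oil 1 or without tamoxifen 3, Gbp5 was higher without overlap (11.5% and 12.4% of all genes tested). Without tamoxifen 1 the log2 fold change of Gbp5 was 0.18. The 4 Gbp genes thus differed unequally within a library. The log2 ratio of Gbp3 to Gbp7 was higher in tamoxifen by 0.98 and that of Gbp3 to Gbp5 by 1.07, both without overlap of the groups. The ratio of Gbp2 to Gbp3 was lower by 0.44, also without overlap, and that of Gbp5 to Gbp7 overlapped.

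**Figure D3:**
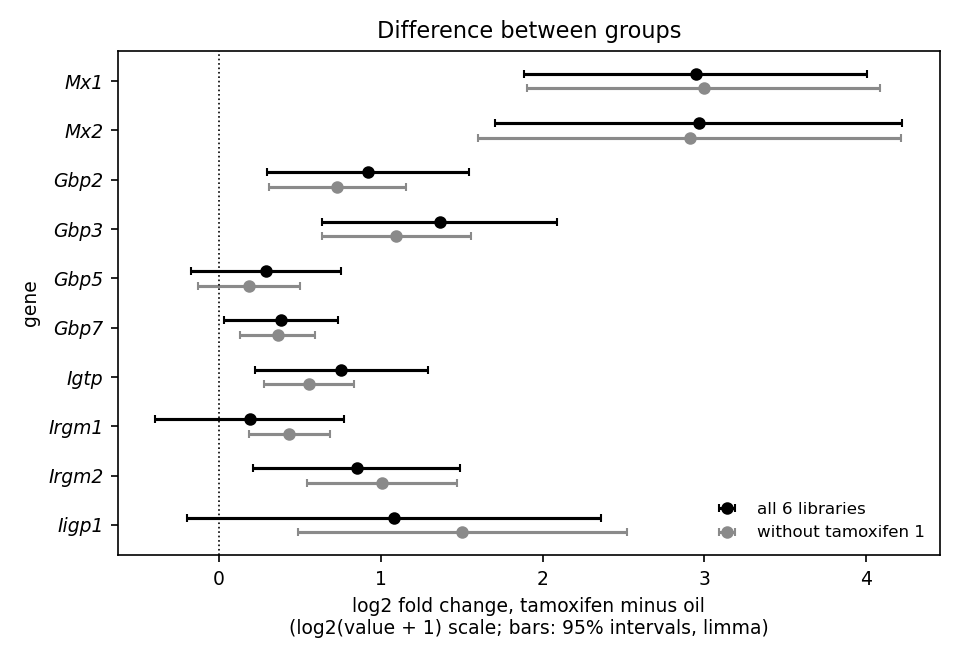
Log2 fold change of each gene, libraries labelled tamoxifen minus those labelled oil, on the log2(value + 1) scale, with 95% intervals from limma for all 6 libraries (black) and without tamoxifen 1 (gray). The intervals of Mx1 and Mx2 lie above 1.60 in both fits, and those of Gbp5, Irgm1 and Iigp1 include 0 with all 6 libraries.

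Of the 4 Irg genes, 2 were separate between the groups with all 6 libraries. Among the 3 regulators, Igtp and Irgm2 were higher without overlap, whereas Irgm1, the most abundant of the Irg genes per kilobase, overlapped between the groups. The effector gene Iigp1, the least abundant, also overlapped. Without tamoxifen 1, 4 of 4 Irg genes were higher without overlap (12.6% of all genes tested), and Iigp1 was also separate without oil 2. Igtp (ENSMUSG00000078853.8, chromosome 11, 58199556 to 58207591, plus strand), whose protein sits on the endoplasmic reticulum and lipid droplets, had 273, 272 and 281 normalized counts in oil and 615, 440.5 and 374 in tamoxifen. The oil-labelled libraries were nearly equal and the tamoxifen-labelled ones spread widely above them, with means of 276 ± 5.09 and 476 ± 124 (SD, n = 3 each). The log2 fold change was 0.76 (SE 0.22, 95% interval 0.22 to 1.29, adjusted p = 0.666, limma). Without tamoxifen 1 it was 0.56 in limma (adjusted p = 0.135) and 0.57 in DESeq2 (adjusted p = 0.0351).

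Irgm2 (ENSMUSG00000069874.7, chromosome 11, 58199618 to 58222782, plus strand) had 151, 187 and 119.8 normalized counts in oil and 218, 346 and 265 in tamoxifen. Here tamoxifen 2 was the highest library and the groups did not overlap. The log2 fold change was 0.85 (SE 0.27, 95% interval 0.21 to 1.49, adjusted p = 0.666, limma), and without tamoxifen 1 it was 1.01 in limma (adjusted p = 0.104) and 1.01 in DESeq2 (adjusted p = 0.00232). Igtp and Irgm2 are annotated as overlapping on the same strand with 162 shared exonic bases, and 5.16% of the 100-base stretches of Igtp occur in Irgm2, so part of their reads could be assigned to either. Their log2 ratio within a library overlapped between the groups.

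Irgm1 (ENSMUSG00000046879.7, chromosome 11, 48861968 to 48871683, minus strand), which guards mitochondria and other membranes of the host cell, had 1178, 1420 and 1272 normalized counts in oil and 1048, 1919 and 1576 in tamoxifen. Tamoxifen 1 was the lowest of the 6 libraries and the other tamoxifen-labelled libraries were the highest. The log2 fold change was 0.19 (SE 0.24, 95% interval -0.39 to 0.78, adjusted p = 0.706, limma). It was 0.43 without tamoxifen 1 (adjusted p = 0.181, limma), where DESeq2 called the gene (0.45, adjusted p = 0.0225), and -0.0011 without tamoxifen 2. With a correction for GC content it was 0.38 (95% interval 0.063 to 0.70, adjusted p = 0.681, limma). The log2 ratio of Irgm1 to Irgm2 was lower in tamoxifen by 0.66, without overlap of the groups.

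Iigp1 (ENSMUSG00000054072.12, chromosome 18, 60376027 to 60392634, plus strand), an effector that oligomerizes on parasite vacuoles, had 6.29, 12.5 and 11.1 normalized counts in oil and 11.5, 40.4 and 20.9 in tamoxifen. The value of tamoxifen 1, from 9 reads, lay among the oil-labelled libraries, and tamoxifen 2 and 3 lay above them. The log2 fold change was 1.08 (SE 0.53, 95% interval -0.20 to 2.36, adjusted p = 0.666, limma) and 1.504 without tamoxifen 1 (95% interval 0.49 to 2.52, adjusted p = 0.235), but 0.64 without tamoxifen 2 (adjusted p = 0.483). Iigp1 had the lowest GC content of the 10 genes, 39.3%, and with a correction for GC content its log2 fold change was 1.64 (95% interval 0.68 to 2.60, adjusted p = 0.546, limma).

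Levels were compared between genes per kilobase of exon. In the libraries labelled oil the order was Gbp7 (302 ± 37.6 normalized counts per kilobase, SD, n = 3), Irgm1 (222 ± 21.04), Igtp (136 ± 2.52), Gbp2 (50.9 ± 8.07), Irgm2 (41.4 ± 9.14), Gbp5 (34.4 ± 3.03), Gbp3 (21.8 ± 3.92), Iigp1 (1.72 ± 0.56), Mx1 (1.57 ± 0.92) and Mx2 (1.22 ± 1.03). Neighbors in this order overlapped for Gbp2 and Irgm2, for Irgm2 and Gbp5, and among Iigp1, Mx1 and Mx2, and were separate otherwise. Gbp7 stood at percentile 68.5 of all genes tested and Mx2 at 0.634. Mx1 and Mx2 were tested only through the libraries labelled tamoxifen, so their low place in oil follows partly from the filter. By group mean in the libraries labelled tamoxifen, Gbp3 (58.2 ± 20.2) stood above Gbp5 (42.3 ± 5.98). Mx1 (12.7 ± 0.77) and Mx2 (9.86 ± 1.05) stood above Iigp1 (4.17 ± 2.53), while the other ranks were as in oil. There, neighbors overlapped for Irgm1 and Igtp, Gbp2 and Irgm2, Irgm2 and Gbp3, and Gbp3 and Gbp5, and were separate otherwise. In tamoxifen 1 Irgm1 (180) lay below Igtp (304).

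Of 21 further genes in families of interferon-induced GTPases, not each known to be induced by interferon, 20 were in the table. Of these 6 had enough reads to be tested, 5 higher and 1 lower, with a median log2 fold change of 0.087. In the limma test on log2(value + 1) of all 6 libraries, with no weights or GC correction, none had an unadjusted p under 0.05, and none passed in DESeq2 on all 6. Tgtp2, an effector Irg gene, had 449, 529 and 519 normalized counts in oil and 525, 1007 and 891 in tamoxifen, so that tamoxifen 1 fell among the oil-labelled libraries (log2 fold change 0.64, adjusted p = 0.666, limma). Without that library Tgtp2 rose by 0.93 (adjusted p = 0.00839, limma), and DESeq2 gave it an adjusted p of 1.87e-09, lower than that of any of the 10 genes there. Library weights gave tamoxifen 1 a weight of 0.038 and the other libraries 0.96 to 3.37, so that fit nearly leaves out tamoxifen 1. With these weights limma called both Tgtp2 (0.85, adjusted p = 0.00118) and Tgtp1 (0.63, adjusted p = 0.0434). They were among 470 genes called higher of 12298 tested. Tgtp1, the near-identical neighbor of Tgtp2, had 97.0, 103 and 113 normalized counts in oil and 120, 213 and 149 in tamoxifen, without overlap. Its log2 fold change was 0.58, and 0.77 with an adjusted p of 0.181 without tamoxifen 1 (limma). Reads shared by the pair could be assigned to either. Ifi47 (0.011), 9930111J21Rik1 (0.045), 9930111J21Rik2 (-0.22) and Irgq (0.13) had log2 fold changes within their spread. F830016B08Rik, a gene similar to Iigp1 on chromosome 18 that missed the filter, had 1, 3 and 3 reads in oil and 6, 16 and 13 in tamoxifen, without overlap. The Gbp genes of the chromosome 5 cluster were at the limit of detection: over all 6 libraries Gbp4 had 6 reads, Gbp6 3, Gbp8 9, Gbp9 8, and Gbp10 and Gbp11 none. The Gbp cluster on chromosome 3 thus held the Gbp transcripts detected here above that limit, apart from its member Gbp2b, which had 5 reads in all.

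Of 16 receptors, kinases, transcription factors and feedback inhibitors that control the GTPase genes 14 were tested, 7 with a higher and 7 with a lower mean. Of these, 3 of the higher and 0 of the lower had an unadjusted p under 0.05 in limma, against 397 and 153 of all 12298 genes tested. The median of the 14 was a log2 fold change of 0.11 (0.040 without tamoxifen 1). Irf7, an interferon-induced transcription factor that amplifies the type I response, had 255, 350 and 245 normalized counts in oil and 1394, 890 and 824 in tamoxifen. All tamoxifen-labelled libraries were far above the others, and the gene rose in DESeq2 (log2 fold change 1.84 and adjusted p = 0.426 in limma, adjusted p = 3.9e-06 in DESeq2). Socs1, a feedback inhibitor of JAK kinases, had a log2 fold change of 0.99 and Irf9, the DNA-binding subunit of the type I complex, of 0.35, each without overlap (adjusted p = 0.666 for both, limma). Without tamoxifen 1, Irf7 (1.61, adjusted p = 0.00277) and Socs1 (0.61, adjusted p = 0.0426) rose in limma.

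Among 18 other type I interferon genes 16 were tested, 15 were higher, and 14 were higher without overlap (7.86% of all genes tested), with a median log2 fold change of 1.13 (0.93 without tamoxifen 1). DESeq2 called 7 of them as risen (0.437% of all genes). Rsad2 and Cmpk2 were under 10 in every library labelled oil and were tested only through those labelled tamoxifen. Of the other 14, 12 were higher without overlap, with a median of 0.87. Ifit1, which binds foreign RNA, had 32.3, 39.6 and 25.1 normalized counts in oil and 298, 226 and 236 in tamoxifen (log2 fold change 2.95, adjusted p = 0.0950, limma), a difference of the size seen in the Mx genes. Rsad2, which encodes viperin, had a log2 fold change of 2.89 from 2, 3 and 2 reads in oil, and Rtp4, a further antiviral gene, of 2.03 (adjusted p = 0.426 and 0.494, limma). Among 15 interferon-gamma biased genes 7 were tested, 5 higher and 2 lower, and 3 were higher without overlap (7.86% of all genes tested). The median of the 7 was 0.49, and 0.15 without tamoxifen 1. Nlrc5, the activator of MHC class I genes, had 41.3, 31.8 and 38.1 normalized counts in oil and 309, 75.8 and 57.3 in tamoxifen, so tamoxifen 1 was far above the rest (log2 fold change 1.56, adjusted p = 0.666, and 0.82 without tamoxifen 1, adjusted p = 0.252, limma). Psmb10 (0.61) and Tap2 (0.57), of the immunoproteasome and of peptide transport, were likewise highest in tamoxifen 1, and had log2 fold changes of 0.18 and 0.15 without it. In 10 genes of the ATG conjugation machinery, which places Gbp and Irg proteins on vacuoles, 4 were higher and 6 lower, none without overlap, with a median of -0.035. The largest were Map1lc3b (-0.27), Atg16l1 (0.25) and Atg7 (0.14), none of which passed the test.

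**Figure D4:**
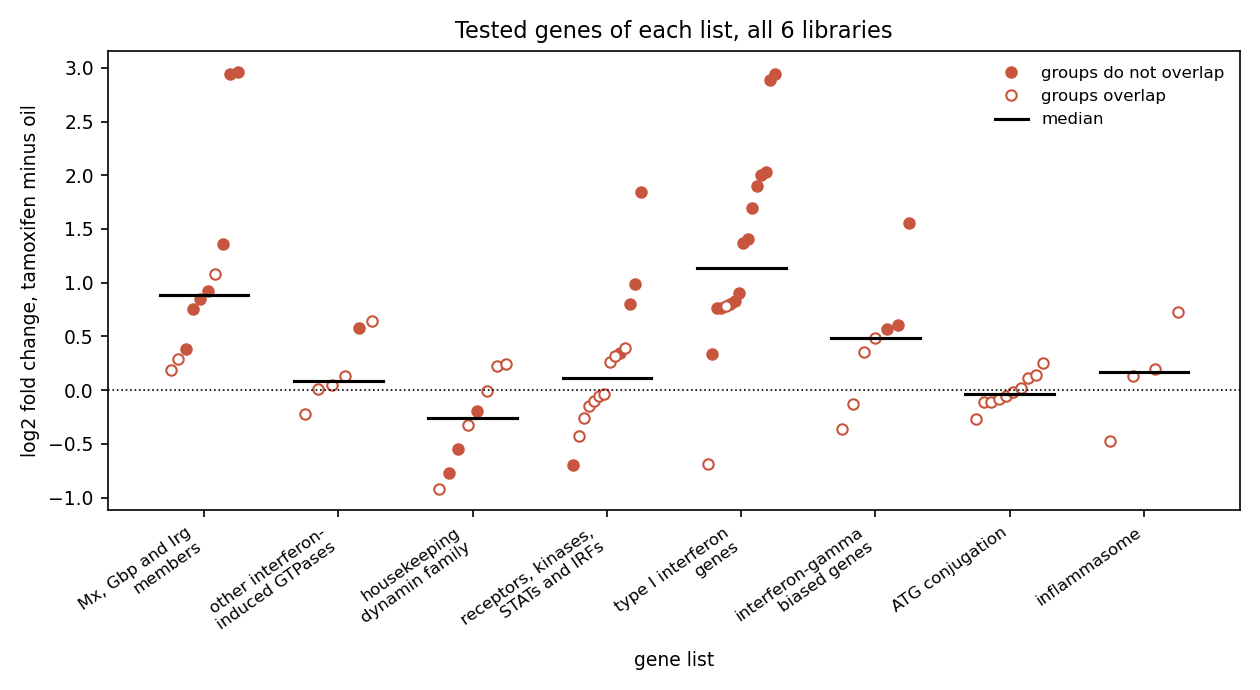
Log2 fold change, libraries labelled tamoxifen minus those labelled oil, of every tested gene in 8 gene lists, with filled points where the groups do not overlap and bars for list medians. The medians are 0.89 for the Mx, Gbp and Irg genes and 1.13 for the type I interferon genes. They are 0.087 for the other genes of interferon-induced GTPase families and -0.26 for the housekeeping dynamin family.

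Markers of other cells were checked because macrophages and lymphocytes express Gbp and Irg genes strongly. Kit, the gate's own marker, had 7512 to 8990 normalized counts in oil and 4687 to 10980 in tamoxifen. Of 10 macrophage markers 8 were tested, 8 were higher and 4 higher without overlap (7.86% of all genes tested), and their summed level was 108 to 263 in oil and 291 to 404 in tamoxifen. For example, Csf1r had 22.5, 10.6 and 14.9 normalized counts in oil and 33.2, 44.5 and 31.8 in tamoxifen. The summed neutrophil markers ran from 13.5 to 24.1 in oil and from 43.7 to 68.7 in tamoxifen, with Ly6g at 0 in every library. Of 8 neutrophil markers 2 were tested, 1 higher and 1 lower. The higher, Elane, was tested only through the libraries labelled tamoxifen. The lower, Mmp8, had 8.98, 19.3 and 13 normalized counts in oil and 0, 8.08 and 13.6 in tamoxifen. The summed B-cell markers ran from 13.5 to 27.9 and from 50.02 to 57.5, with Ms4a1 at 0 in every library. T-cell markers summed to 40.5 to 68.7 and 33.7 to 103, mostly from Lck, with Cd3e at 0, and 6 of 6 NK-cell markers were at 0. Dendritic-cell markers summed to 85.3 to 130.2 and 84.9 to 175, mostly from Zbtb46. Erythroid genes were high in both groups, at 43830 to 64070 and 49620 to 74300. The part of macrophage, neutrophil and B-cell transcripts in the differences of the GTPase genes was not tested.

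Across the 6 libraries, the mean standardized profile of the 10 genes was followed most closely by Mx1 (Pearson's r = 0.986), Mx2 (0.976) and Gbp7 (0.948) and least by Irgm1 (0.398). The 5 other tested genes most like that profile were Ddx58 (0.988), Maf (0.988), Nectin4 (0.987), Rsad2 (0.985) and Ifit1 (0.982). These correlations rest on 6 libraries that fall into the 2 groups, so they describe the likeness and carry no p. Ddx58, which encodes the RNA sensor RIG-I, had 461, 572 and 398 normalized counts in oil and 814, 869.9 and 787 in tamoxifen. Maf, a transcription factor of macrophages and lymphocytes, had 2.69, 3.86 and 1.86 in oil and 14.1, 16.2 and 16.4 in tamoxifen, and Nectin4, a cell adhesion gene, had 0, 1.93 and 0 in oil and 52.4, 27.3 and 19.1 in tamoxifen. The oil values of Maf and Nectin4 lie at 0 to 4 reads, so their order among the oil-labelled libraries carries no information, and both, like Rsad2, were tested only through the libraries labelled tamoxifen. In each of these genes the libraries labelled tamoxifen lay above those labelled oil without overlap (7.86% of all genes tested). The genes were picked for likeness to a profile that itself differs between the groups, so this lack of overlap is no separate result. For Maf, Nectin4, Rsad2 and the Mx genes the filter alone required it.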

How the data were processed

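RNA of sorted GFP+Lin-c-Kit+ cells was sequenced by the study from 3 mice per group. The processing notes of the submitters name STAR, DESeq2 and mm10. The annotation, strand setting and filters are not given in the sources used here. Library preparation is labelled with a kit for DNA tagmentation. The deposited values are a normalized signal: the authors divided the read count of each gene by a size factor, 1 for each library. In all 6 libraries 100% of values above 0 were whole multiples of the value of 1 read (tolerance 0.01 reads), and division by it gave back the reads. Of 55450 table entries 1832 carried no gene name (0.0400% to 0.0614% of reads) and were left out. Reads are not unique molecules, so counting errors cover sampling of reads only.

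Genes that reached 10 normalized counts in 3 libraries or more were tested with limma 3.58.1 (R 4.3.3; lmFit, eBayes with trend) on log2(value + 1), two-sided, with Benjamini-Hochberg adjustment over all genes tested and a threshold of 0.05. Fold changes on this scale understate changes of low genes. DESeq2 1.42.0 and edgeR 4.0.16 (quasi-likelihood) were run on recovered reads. On simulated data for this comparison (12298 genes, 200 changed by 2 on the log2 scale, dispersion 0.05, no library standing apart), limma recovered 98.5% and DESeq2 98% of the changed genes, with 4 and 20 false calls, which is not the recovery to be had on these libraries. Other alternatives were TMM and upper-quartile scaling, pseudocounts of 0.5 and 5, other filters, the replicate number as a block, GC correction, library weights, stricter limits and each library left out. DESeq2 and edgeR without tamoxifen 1 were chosen after seeing the data.

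Coordinates, exon lengths and GC content are from GENCODE vM21 (GRCm38), matched by symbol. Promoters are from RefSeq. The 10 genes and the lists were chosen with earlier results of these data known. Genes named are the 10, Usp18, up to 3 tested genes per list with the smallest limma p, and the 5 genes most like the mean profile. Every further gene of the interferon-induced GTPase families past the filter is also named. Marker genes, untested GTPase genes, Cmpk2 and Gm43802 were named after their values were seen. The results of some genes are not reported here.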

Additional observations from a re-analysis of the deposited data

How the results depend on the processing

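All alternatives that gave a value kept a higher level for the 10 genes in the libraries labelled tamoxifen, except that Irgm1 stood at -0.0011 without tamoxifen 2, the lowest of its values with a library left out (the highest was 0.43, without tamoxifen 1). Of 230 values for single genes under an alternative (these 10 genes and Usp18), 211 stayed on their side of the threshold, 18 passed it only under the alternative and 1 changed sign. The count of genes past the threshold, 0 in limma, was 71 in DESeq2, 2 with GC correction, 782 with library weights, 230 in DESeq2 without tamoxifen 1 and 46 in edgeR without it. Of the 782, 470 were higher, and these weights gave tamoxifen 1 a weight of only 0.038. With each library left out in turn the count of genes past the threshold ran from 0 to 41, the highest without tamoxifen 1. At an unadjusted p under 0.05, limma gave 550 genes and edgeR 596. Of the 10 genes, 0 passed in limma, 3 in DESeq2, 6 with library weights (Mx1, Mx2, Gbp2, Gbp3, Igtp and Irgm2), 6 in DESeq2 and 1 in edgeR without tamoxifen 1, and 0 to 1 with a library left out. Usp18 passed with library weights alone (0.52, adjusted p = 0.0348, limma). Their median of 0.89 was 1.02 with GC correction and 1.02 with GC correction and the replicate block, and 0.74 to 1.01 with a library left out. The count higher without overlap was 7, and 7 to 9 with a library left out, where 10.8% to 15.8% of all genes tested were higher in this way (12.6% without tamoxifen 1, which gave the 9). It was not run under other scalings. The cause of these differences was not tested. Replicate numbers did not pair the libraries (correlations of deviations -0.024, 0.061 and -0.15), and with the replicate block the median was 0.89 and 0 genes passed, with 426 at an unadjusted p under 0.05. The median over all genes of a fit was moved most in DESeq2, to 0.11, but that fit took every gene with a read. In limma with no filter that median was 0.040, so method and gene set are not separated here. Iigp1 gave no value at 1 CPM or more in 3 libraries. Of the 10 genes, reads limit Mx1 and Mx2 most in oil, where 3 reads equal 2.69 to 2.89 normalized counts.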

Other observations

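The housekeeping dynamin family, whose proteins divide and fuse membranes and share the GTPase fold of Mx proteins, was followed as a contrast. Of 10 genes 8 were tested, 2 with a higher and 6 with a lower mean under the tamoxifen label, with a median log2 fold change of -0.26 that was -0.055 without tamoxifen 1. Of these 3 were lower without overlap, as were 1192 of all 12298 genes tested, and none of the 8 passed the test in limma. The smallest p belonged to Atl2 (-0.77, and -0.15 without tamoxifen 1), Mfn1 (-0.19, and -0.19) and Dnm1l (-0.92, and -0.085). Dnm1l had 3011, 2910 and 2923 normalized counts in oil and 486, 2930 and 2635 in tamoxifen, so tamoxifen 1 lay far below the other libraries.

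Of 8 inflammasome genes, which act after Gbp proteins open a vacuole, 4 were tested, 3 higher and 1 lower and none without overlap. Casp4, the sensor of cytosolic lipopolysaccharide, had 38.6, 26.1 and 39.9 normalized counts in oil and 37.1, 61.6 and 82.7 in tamoxifen (log2 fold change 0.73, adjusted p = 0.666, limma). It was 1.04 without tamoxifen 1 (adjusted p = 0.189) and passed with library weights (1.23, adjusted p = 0.0148). Aim2 (-0.47) and Pycard (0.20) had log2 fold changes within their spread, and without tamoxifen 1 these were 0.010 and -0.13. The median of the list was 0.17, and -0.060 without tamoxifen 1.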
